A study of Sus scrofa with 12 samples.

Results

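Homologous recombination and Fanconi repair genes were followed in whole pig ovaries, with 1 question in view: which of them moved with DNA synthesis (S phase) genes and which did not. The set lists 43 gene symbols, chosen by name and function with earlier results of these data known. A member is the locus of the deposited table that carries the symbol, or the one with the highest mean count where several loci carry it. Of the 43 symbols, 32 had a locus of their own among 29150 loci, and 31 of these passed the expression filter, a mean FPKM (fragments scaled for gene length and library size) of at least 0.5. The exception was EME1, a subunit of a nuclease that cuts DNA junctions.

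Homologous recombination mends a broken chromosome by copying the intact sister. The ends are first trimmed to single strands, BRCA1, BRCA2 and PALB2 then prepare them for strand invasion, and helicases and nucleases later take the joined molecules apart. The Fanconi pathway frees strands that are crosslinked to each other: its core complex puts ubiquitin on the FANCD2 and FANCI pair, and recombination finishes the repair. Both depend on a sister copy and are known for their use in S and G2 phase, while sensors such as ATM and the MRE11, RAD50 and NBN complex are used throughout the cell cycle. In the ovary, dividing granulosa cells of growing follicles make up much of the S phase population, and oocytes are known to need recombination proteins for meiosis and for survival.

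The RNA came from left ovaries of 12 gilts (young female pigs) of the New French Yorkshire line. The 6 ES gilts had gone through 2 consecutive estrus cycles and were slaughtered in the third estrus, and the 6 NES gilts were full sisters in which no estrus was seen although detection had started at 165 days of age. Each library is 1 gilt, no treatment is given in the labels, and no source used here gives the age at slaughter, so estrous stage, age and cyclicity cannot be told apart. Ribosomal RNA was removed and stranded libraries were made, with 58140547 to 68961955 counts each.

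Levels below are CPM, counts scaled by library size with TMM factors (trimmed mean of M values). A count of 0 allows up to 0.0435 to 0.0516 CPM, for counting error only. A called difference has an adjusted p under 0.05 by the quasi-likelihood test of edgeR, after Benjamini-Hochberg correction across 20421 loci. In whole tissue, fewer cells of a type and less RNA per cell cannot be told apart.

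Of the 11 symbols without a locus of their own, 7 lay in loci joined to a neighbouring gene (BRIP1, RAD51AP1, RAD54B, FANCE, FANCL, CHEK1 and MCM9) and 4 had no locus under that symbol (XRCC3, RAD50, RBBP8 and FANCG). Members were matched only by the symbols in the table, whereas genes of the other lists were also matched through a name table of Ensembl identifiers. Through that table RBBP8, which starts end trimming, had a tested locus with a log2 difference of -0.35 ± 0.12 (adjusted p = 0.204, edgeR) and a slope of 0.27, and it is not counted below. Another member needs care. The chosen locus of RAD51B, a gene of strand invasion, lies on the opposite strand and is not annotated as coding. It is named below as the RAD51B opposite-strand locus. No source used here gives the counting program or its strand setting, so reads from overlapping loci on opposite strands could be shared.

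Repair RNA was lower in the ES ovaries, and the difference was uneven across the set. Of the 31 tested members, 5 fell in ES and 0 rose, against 0.793% lower and 0.152% higher among all tested loci. The members were chosen with earlier results of these data known, so shares of all loci, here and below, are given for scale only. The 5 were BRCA1, BRCA2, the helicase ZGRF1, the BLM partner RMI2 and the mismatch sensor MSH6. The median member differed by -0.77 on the log2 scale, where all loci had a median of 0.043, and 29 of 31 members had a negative difference. At an unadjusted p under 0.05, edgeR put 23 members lower, where 6.79% of all loci were, and 0 higher, where 9.5% were. DESeq2 called 19 members lower, against 3% of loci, and 0 higher, against 2.33%. The ES libraries lay wholly below the NES libraries for 4 members: FANCC, MSH6, RAD54L and the RAD51B opposite-strand locus. Among all loci this held for 0.906%.

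The count of 5 depended on single libraries. It was 0 without any one of ES2 to ES6 or NES1 to NES5, 11 without ES1 and 17 without NES6. It was also 0 without ES3 and ES6 together and 8 without NES1 and NES6 together. The differences of the 5 stayed negative. Without ES3 and ES6 those of BRCA1, BRCA2, ZGRF1, RMI2 and MSH6 were -1.27, -0.83, -1.52, -1.27 and -0.48.

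**Figure D1:**
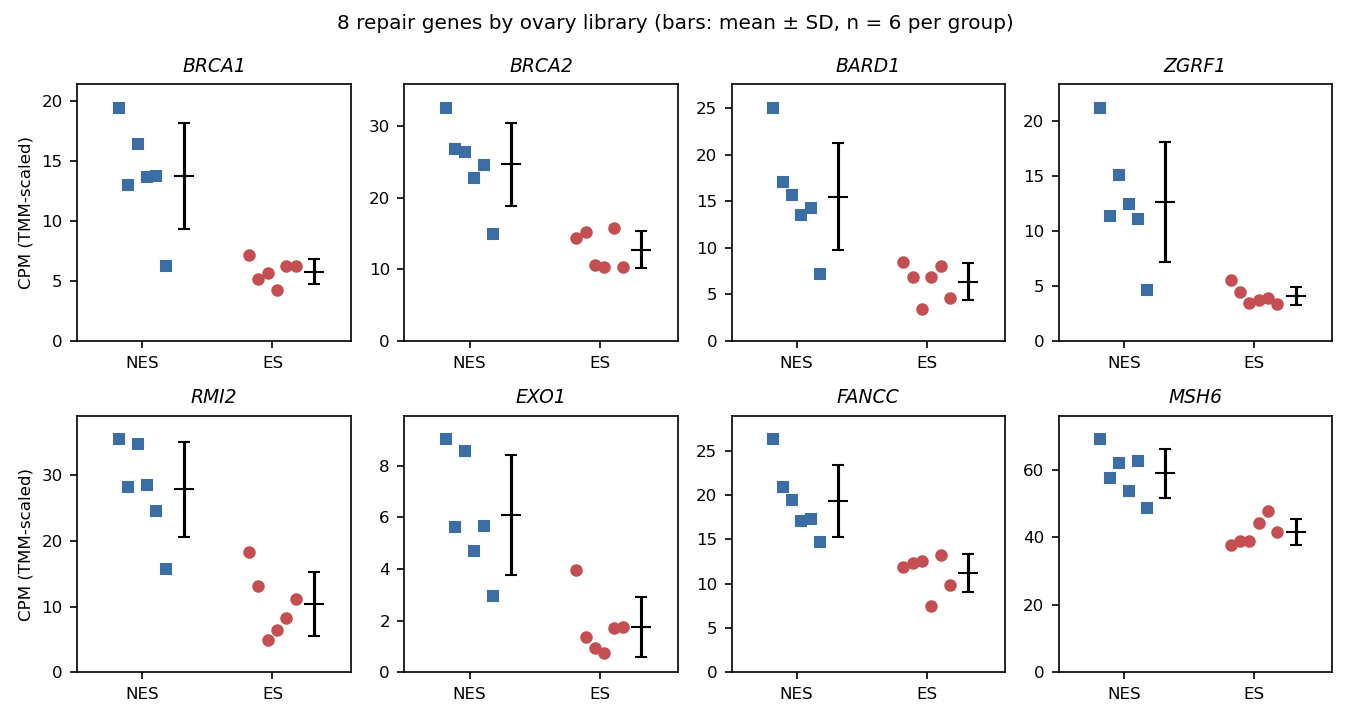
Level of 8 members in each of 12 ovary libraries (y axis: CPM, TMM-scaled, from 0); squares are NES libraries 1 to 6 and circles ES libraries 1 to 6 from left to right, and bars give mean ± SD (n = 6). In BRCA1, BRCA2, ZGRF1 and BARD1 the NES6 library sits apart from the other 5 NES libraries and near the ES range, while in MSH6 and FANCC the groups do not overlap.

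S phase itself differed between the groups. A score was made for each library as the mean log2 CPM of 42 S phase genes, none of them a member, centred at 0. It averaged -0.50 ± 0.27 in ES and 0.50 ± 0.47 in NES (SD, n = 6). The difference of -0.99 had an exact two-sided permutation p of 0.00433 over 924 divisions. In ES the score was 0.045, -0.52, -0.62, -0.73, -0.60 and -0.55 for libraries 1 to 6, and in NES 1.08, 0.50, 0.68, 0.60, 0.48 and -0.36. ES1 was the ES ovary with most S phase RNA, NES1 stood at the top of all 12, and NES6 lay inside the ES range. The mitosis score moved the same way, with a difference of -1.38, so S phase and mitosis cannot be told apart here.

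To ask which repair genes followed S phase apart from the group difference, each locus was fitted with both group and score. The coefficient of the score is the S phase slope. It is a log2 change per unit of score within groups, so a slope of 1 means that a gene moved as much as the average S phase gene, and 0 that it did not move with the score. In this test 6 members had a called positive slope and 0 a called negative one, against 0.681% and 0.0147% of all loci. The 6 were ZGRF1, BLM, TOPBP1, FANCD2, BRCA1 and FANCI. The 95% interval lay above 0 for 19 of 31 members, where it did so for 7.55% of loci. The other 12 had intervals that included 0 and ended below 1, which is common, since 72% of all loci had an interval below 1. The lowest slope of the 19 was 0.48, for FANCC, and the highest of the 12 was 0.19, for PALB2. The sets were divided by these same fits, so this does not show 2 classes of gene. The intervals of FANCC (0.03 to 0.93) and PALB2 (-0.20 to 0.58) overlapped. Without NES1 and NES6 the slopes of FANCC, RMI1 (one of the 19) and PALB2 were 0.30, 0.0013 and 0.13.

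By DESeq2, 15 members had a called positive slope, against 2.13% of loci, and 0 a negative one. The slopes rest mostly on the NES libraries, which spread more widely. NES libraries alone gave 7 called members, against 0.73% of loci, and ES libraries alone 0, against 0% of loci. Without NES1 the count was 2, without NES6 it was 3 and without ES3 it was 9, and without NES1 and NES6 together it was 1. A test of whether the slope differed between ES and NES called 0 of 31 members by edgeR, against 0.553% of loci. At an unadjusted p under 0.05 it marked 5, where 11.2% of loci were marked.

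**Figure D2:**
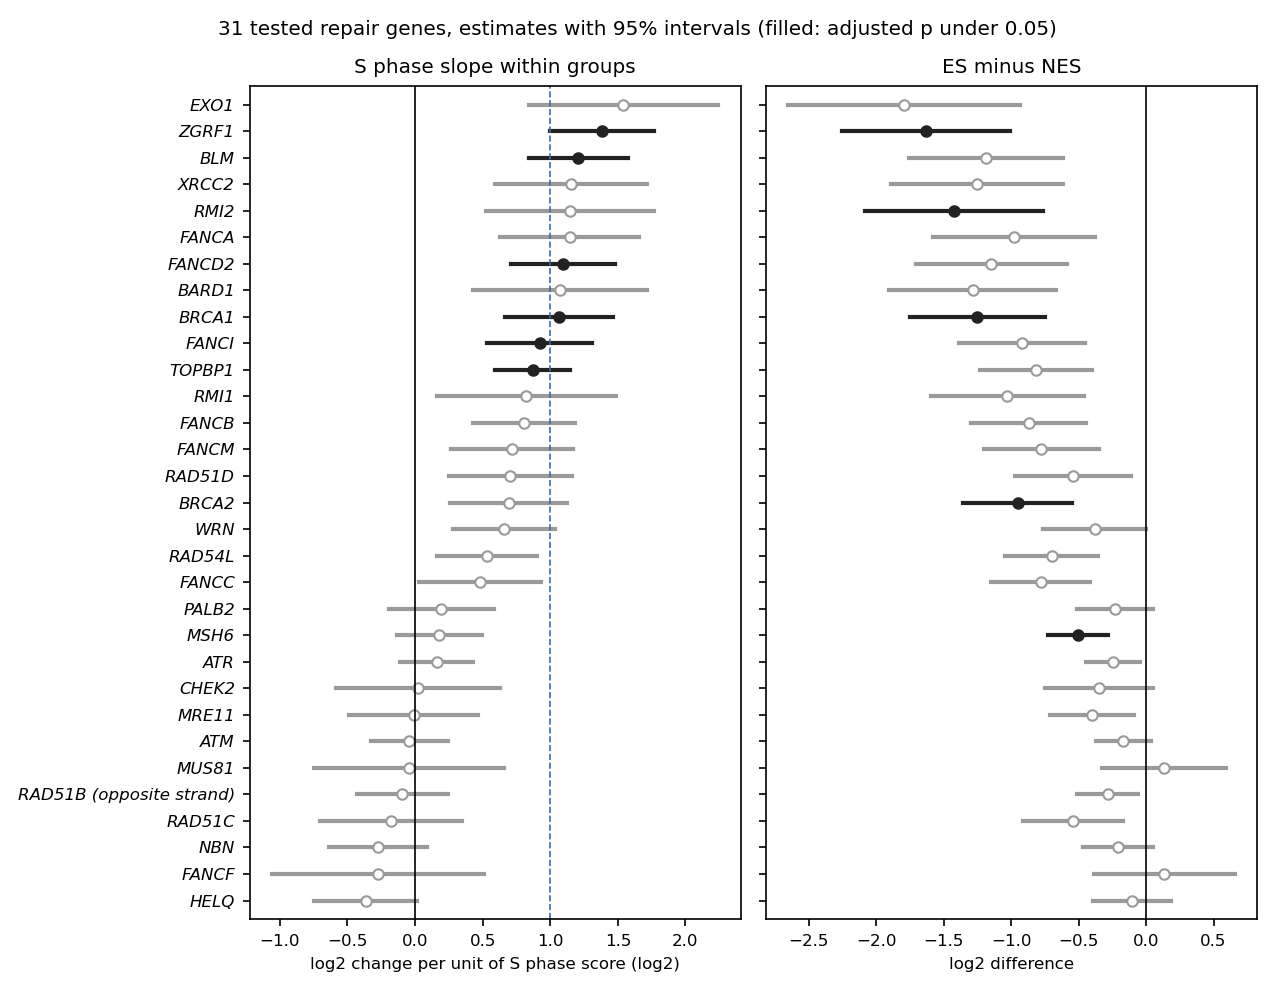
Estimates with 95% intervals for the 31 tested members, ordered by slope: left, S phase slope within groups (x axis: log2 change per unit of score, dashed line at 1); right, ES minus NES (x axis: log2 difference). Filled points have an adjusted p under 0.05. Genes in the upper 19 lines have slope intervals above 0, those in the lower 12 include 0, and the negative group differences are mostly larger in the upper lines.

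Genes of the loading complex had unlike slope estimates. BRCA1, which opens the way for resection and brings in PALB2 and BRCA2, lies on chromosome 12 (19787858 to 19853505, build Sscrofa11.1). It measured 7.20, 5.18, 5.63, 4.22, 6.22 and 6.22 CPM in ES 1 to 6, and 19.4, 13.0, 16.4, 13.6, 13.7 and 6.20 CPM in NES 1 to 6. Only NES6 fell among the ES values. BRCA1 fell by 1.25 ± 0.23 on the log2 scale (SE, adjusted p = 0.0387, edgeR), from 13.7 ± 4.40 to 5.78 ± 1.02 CPM, and its slope was 1.06 ± 0.18 (adjusted p = 0.0200).

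BARD1, the partner with which BRCA1 forms a ubiquitin ligase, had almost the same size of difference. It measured 8.49, 6.83, 3.38, 6.85, 8.02 and 4.59 CPM in ES, and 25.0, 17.1, 15.7, 13.6, 14.3 and 7.24 CPM in NES. NES6 again lay in the ES range. The log2 difference was -1.28 ± 0.29 (adjusted p = 0.0564, edgeR) and the slope 1.07 ± 0.30 (adjusted p = 0.170), neither of them called.

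BRCA2, which prepares single strands for invasion, lies on chromosome 11 (8806842 to 8860435). Its levels were 14.4, 15.1, 10.6, 10.3, 15.7 and 10.3 CPM in ES, and 32.5, 26.8, 26.3, 22.7, 24.5 and 14.9 CPM in NES. Here too NES6 alone overlapped the ES libraries. BRCA2 fell by 0.95 ± 0.19 in log2 units (adjusted p = 0.0392, edgeR), while its slope of 0.69 ± 0.20 was not called (adjusted p = 0.191). PALB2, the bridge between BRCA1 and BRCA2, differed by -0.23 ± 0.13 (adjusted p = 0.405) and had a slope of 0.19 ± 0.18, with an interval from -0.20 to 0.58. So 3 of the 4 tested genes of the complex had slope intervals above 0, and the bridging gene had not. The PALB2 interval overlapped those of BRCA2 (0.26 to 1.13) and BARD1 (0.43 to 1.72) and lay below that of BRCA1 (0.66 to 1.46). Differences between these slopes were not tested.

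Genes that assist strand invasion ranged widely in slope. XRCC2, which acts in complexes with RAD51D, measured 2.40, 1.57, 1.26, 0.833, 1.07 and 1.64 CPM in ES, and 5.11, 3.82, 3.92, 3.81, 2.33 and 1.92 CPM in NES. Its log2 difference was -1.25 ± 0.29 (adjusted p = 0.0633, edgeR), and its slope of 1.15 ± 0.26 was not called (adjusted p = 0.0756). RAD51C, which acts in the same complexes, measured 3.65, 5.73, 4.21, 6.12, 5.86 and 5.97 CPM in ES, and 9.42, 8.15, 6.46, 7.49, 5.82 and 8.51 CPM in NES. ES1, with the highest S phase score in ES, had the least RAD51C in ES, while NES1, with the highest score in NES, had the most in NES. The log2 difference was -0.54 ± 0.17 (adjusted p = 0.153) and the slope -0.18 ± 0.24, with an interval from -0.70 to 0.35.

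RAD51D, a further subunit, had a slope of 0.70 ± 0.21 and a log2 difference of -0.54 ± 0.20 (adjusted p = 0.209, edgeR). RAD54L, a motor protein that helps a strand invade its partner, was separated between groups, with 15.1 to 26.8 CPM in ES and 27.8 to 46.6 CPM in NES. Its log2 difference of -0.70 ± 0.16 was not called by edgeR (adjusted p = 0.0600). Its slope of 0.53 had an interval from 0.16 to 0.90, above 0 and below 1.

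The RAD51B opposite-strand locus (chromosome 7, 91636453 to 91919823) measured 520.0, 757, 755, 723, 752 and 646 CPM in ES, and 874, 804, 865, 854, 869.6 and 796 CPM in NES. All ES values lay below all NES values, with ES1 the lowest. The log2 difference was -0.29 ± 0.10 (adjusted p = 0.207, edgeR) and the slope -0.09 ± 0.15. The coding RAD51B locus had a mean FPKM of 0.220 and was not tested with the rest. It measured 9.85 ± 0.83 CPM in ES and 11.8 ± 0.80 CPM in NES, and a fit without the filter gave -0.26 ± 0.10 (adjusted p = 0.271).

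Break sensing and end trimming genes differed in slope. EXO1, a nuclease that trims ends over long stretches and also serves mismatch repair, had the steepest slope of the 31 members, 1.54 ± 0.32, although it was not called (adjusted p = 0.0551, edgeR). It measured 3.96, 1.38, 0.947, 0.765, 1.72 and 1.76 CPM in ES, and 9.02, 5.62, 8.56, 4.72, 5.65 and 2.94 CPM in NES. ES1 stood above the other ES libraries and above NES6. The log2 difference of -1.79 ± 0.40 was the largest among tested members and missed the threshold (adjusted p = 0.0548).

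NBN, the regulatory subunit of the break sensor, did not share this. It measured 43.0, 68.9, 67.8, 60.1, 73.2 and 57.9 CPM in ES, and 63.8, 75.4, 74.5, 72.2, 71.2 and 72.4 CPM in NES. The library with the highest score of each group, ES1 and NES1, had the least NBN of its group. The log2 difference was -0.21 ± 0.12 (adjusted p = 0.406, edgeR), and the slope was -0.27 ± 0.17, with an interval from -0.64 to 0.09. MRE11, the nuclease of that complex, had a slope of -0.01 ± 0.22 and a log2 difference of -0.40 ± 0.14 (adjusted p = 0.202).

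Among helicases and their partners, BLM, RMI1 and RMI2 of the dissolution complex had slope intervals above 0. TOP3A, the topoisomerase of that complex and no member of the set, had a slope of -0.02 ± 0.16 and a log2 difference of -0.04 (adjusted p = 0.884, edgeR). BLM, the helicase that unwinds double junctions, measured 6.75, 3.79, 4.34, 3.59, 3.49 and 3.72 CPM in ES, and 15.0, 9.46, 12.1, 9.62, 7.52 and 4.64 CPM in NES. Within each group the library with the highest score had the most BLM, and ES1 lay above NES6. The slope was 1.21 ± 0.17 (adjusted p = 0.00555, edgeR), and it stayed called without any single library, at 1.18 to 1.30. The log2 difference between groups was -1.18 ± 0.26 (adjusted p = 0.0564).

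RMI2, a small subunit of the same complex, lies on chromosome 3 (31803409 to 31814867). It measured 18.3, 13.1, 4.91, 6.49, 8.30 and 11.2 CPM in ES, and 35.4, 28.1, 34.7, 28.4, 24.5 and 15.7 CPM in NES. Only ES1 and NES6 overlapped. RMI2 fell by 1.42 ± 0.30 in log2 units (adjusted p = 0.0487, edgeR), and its slope of 1.15 ± 0.29 was not called (adjusted p = 0.122). RMI1, which ties RMI2 to BLM, had a slope of 0.82 ± 0.30 that rested on NES1, since it was 0.41 without that library, and 0.0013 without NES1 and NES6. WRN, a relative of BLM, had a slope of 0.66 ± 0.17 and a log2 difference of -0.38 ± 0.18 (adjusted p = 0.308).

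ZGRF1, a helicase that acts at blocked forks and crosslinks, lies on chromosome 8 (110089893 to 110171741). It measured 5.57, 4.42, 3.49, 3.69, 3.89 and 3.40 CPM in ES, and 21.2, 11.4, 15.1, 12.5, 11.1 and 4.61 CPM in NES. NES6 lay below ES1 and the other NES libraries were at 11.1 CPM or more. ZGRF1 fell by 1.63 ± 0.29 in log2 units (adjusted p = 0.0371, edgeR), and its slope was 1.38 ± 0.18 (adjusted p = 0.00354). A second locus of that name on the opposite strand also fell, by 1.95 ± 0.28 (adjusted p = 0.0337). BRCA1 and ZGRF1 were the 2 members called in both tests.

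At the other end of this group lay HELQ and MUS81. HELQ, a helicase that unwinds stalled forks and anneals strands, had the lowest slope of the set, -0.36 ± 0.17, with an interval from -0.74 to 0.02 (adjusted p = 0.447, edgeR). It measured 19.6, 23.9, 32.4, 29.3, 30.9 and 25.6 CPM in ES, and 24.3, 27.2, 27.9, 30.0, 34.1 and 30.2 CPM in NES. The groups overlapped throughout, with ES1 lowest in ES and NES1 lowest in NES. MUS81, the catalytic partner of EME1, measured 8.01, 13.9, 15.3, 7.33, 7.15 and 7.48 CPM in ES, and 8.95, 10.5, 8.88, 9.31, 7.57 and 8.67 CPM in NES.

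MUS81 was spread by ES2 and ES3, had a log2 difference of 0.14 ± 0.21 (adjusted p = 0.801, edgeR) and a slope of -0.04 ± 0.32. EME1, at the lowest mean FPKM of the set, 0.421, measured 1.97, 1.04, 0.410, 0.449, 0.243 and 1.34 CPM in ES, and 6.21, 3.85, 2.42, 2.77, 1.33 and 1.24 CPM in NES. Its values overlapped in ES1, ES6, NES5 and NES6. Without the filter its log2 difference was -1.71 ± 0.54 (adjusted p = 0.196), so the catalytic subunit and its partner had unlike values, though the difference between them was not tested.

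**Figure D3:**
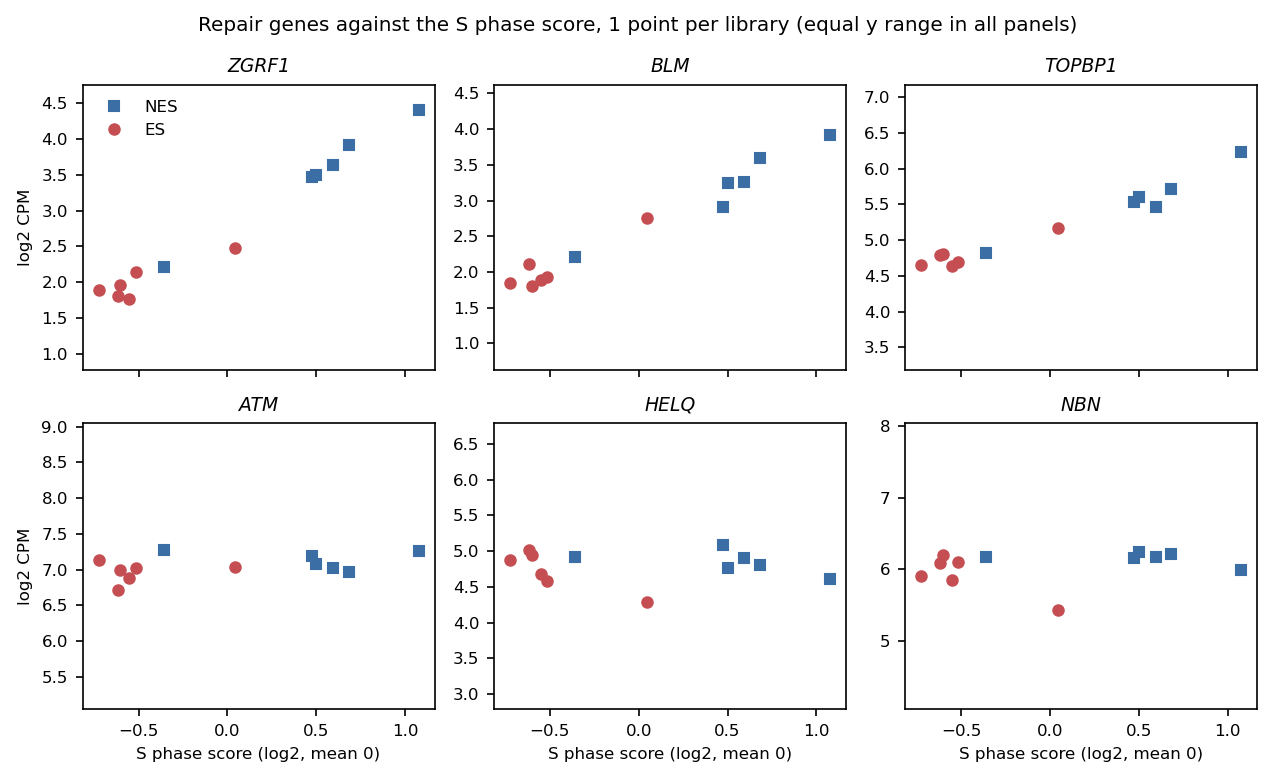
Log2 CPM of 6 members against the S phase score, 1 point per library (x axis: score on a log2 scale, mean 0; y axis: log2 CPM, the same range in every panel). ZGRF1, BLM and TOPBP1 climb along the score in NES, while in ES mainly ES1 stands above the other libraries. Their slopes, fitted over both groups, are 1.38, 1.21 and 0.87. ATM, HELQ and NBN do not climb, with slopes of -0.04, -0.36 and -0.27, and ES1 is the low point of HELQ and NBN.

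In the Fanconi pathway 0 of 7 tested genes were called between groups by edgeR, against 0.793% lower and 0.152% higher among all loci. At an unadjusted p under 0.05, 6 were lower, where 6.79% of all loci were. DESeq2 called 6 lower, against 3% of loci. Positive slopes were called for 2, against 0.681% of loci, both of them the ubiquitin targets. FANCD2 measured 18.6, 9.01, 7.53, 9.88, 11.4 and 10.1 CPM in ES, and 40.0, 22.4, 25.3, 21.9, 23.8 and 13.8 CPM in NES. ES1 stood above NES6. Its slope was 1.09 ± 0.18 (adjusted p = 0.0145), and its log2 difference was -1.15 ± 0.26 (adjusted p = 0.0567, edgeR).

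FANCI, its partner in the clamp, measured 22.4, 17.8, 12.3, 13.3, 17.1 and 21.0 CPM in ES, and 46.8, 29.5, 38.5, 35.1, 27.7 and 18.8 CPM in NES. NES6 lay below ES1 and ES6. The slope was 0.92 ± 0.18 (adjusted p = 0.0396, edgeR), close to that of FANCD2, and the log2 difference was -0.92 ± 0.22 (adjusted p = 0.0635).

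The core complex was less even. FANCA, a core subunit, measured 44.7, 22.3, 18.5, 21.1, 17.2 and 34.7 CPM in ES, and 70.2, 42.9, 66.9, 59.8, 44.8 and 27.9 CPM in NES. ES1 and ES6 lay above NES6. Its slope of 1.14 ± 0.24 narrowly missed the threshold (adjusted p = 0.0536, edgeR), and the log2 difference was -0.98 ± 0.28 (adjusted p = 0.116). FANCB, an X-linked subunit of the catalytic part, had a slope of 0.80 ± 0.17 (adjusted p = 0.0624), and FANCM, the translocase that anchors the complex on DNA, one of 0.71 ± 0.21 (adjusted p = 0.195).

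FANCC, another core subunit, measured 11.8, 12.3, 12.5, 7.53, 13.2 and 9.85 CPM in ES, and 26.3, 20.9, 19.5, 17.0, 17.3 and 14.7 CPM in NES. The groups did not overlap, yet its log2 difference of -0.78 ± 0.17 was not called by edgeR (adjusted p = 0.0514). Its slope of 0.48 had an interval from 0.03 to 0.93. FANCF, an adaptor inside the core, measured 3.01, 4.62, 7.20, 5.47, 3.97 and 9.26 CPM in ES, and 5.63, 4.75, 5.79, 4.18, 4.78 and 5.41 CPM in NES. ES6 and ES3 were highest and ES1 lowest of all 12. The log2 difference was 0.14 ± 0.24 (adjusted p = 0.827), and the slope of -0.28 ± 0.36 had the widest interval in the set, from -1.06 to 0.51. The sign of the group difference was the opposite without ES6, at -0.07.

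The 3 tested signalling kinases had slope intervals that included 0, and their partner TOPBP1 had a called slope. TOPBP1, which activates ATR, measured 36.0, 25.9, 27.8, 25.2, 28.1 and 24.9 CPM in ES, and 75.2, 48.4, 52.8, 44.1, 46.3 and 28.3 CPM in NES. ES1 lay above NES6, and the other NES libraries above ES1. The slope of 0.87 ± 0.13 was called (adjusted p = 0.00791, edgeR), and the log2 difference of -0.81 ± 0.19 was not (adjusted p = 0.0635). ATM, the kinase that answers breaks, had the highest mean FPKM of the set, 4.71. It measured 131, 131, 105, 140.2, 127 and 118 CPM in ES, and 154, 135, 125, 129.7, 146 and 156 CPM in NES. These ranges overlapped, and ES1 and NES1 did not stand out. The log2 difference was -0.17 ± 0.09 (adjusted p = 0.404) and the slope -0.04 ± 0.13, with an interval from -0.33 to 0.24.

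ATR, the kinase of stalled forks, had a slope of 0.16 ± 0.12 with an interval from -0.11 to 0.43, and a log2 difference of -0.25 ± 0.09 (adjusted p = 0.228, edgeR). CHEK2, the kinase below ATM, had a slope of 0.02 ± 0.28 and a log2 difference of -0.35 ± 0.19 (adjusted p = 0.370).

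MSH6 stood apart from the other 4 called members. It recognises base mismatches and lies on chromosome 3 (92785941 to 92814205). It measured 37.8, 38.9, 38.8, 44.2, 47.9 and 41.5 CPM in ES, and 69.0, 57.4, 61.9, 53.7, 62.5 and 48.7 CPM in NES. All ES libraries lay below all NES libraries, and ES1, high in S phase genes, was the lowest of the 12. MSH6 fell by 0.50 ± 0.10 in log2 units (adjusted p = 0.0430, edgeR), the smallest change among the 5. Its slope was 0.18 ± 0.14 (adjusted p = 0.686), with an interval from -0.13 to 0.49. The slope differed between the groups at an unadjusted p under 0.05, as did those of MRE11, NBN, EXO1 and the RAD51B opposite-strand locus, and none of these passed adjustment.

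**Figure D4:**
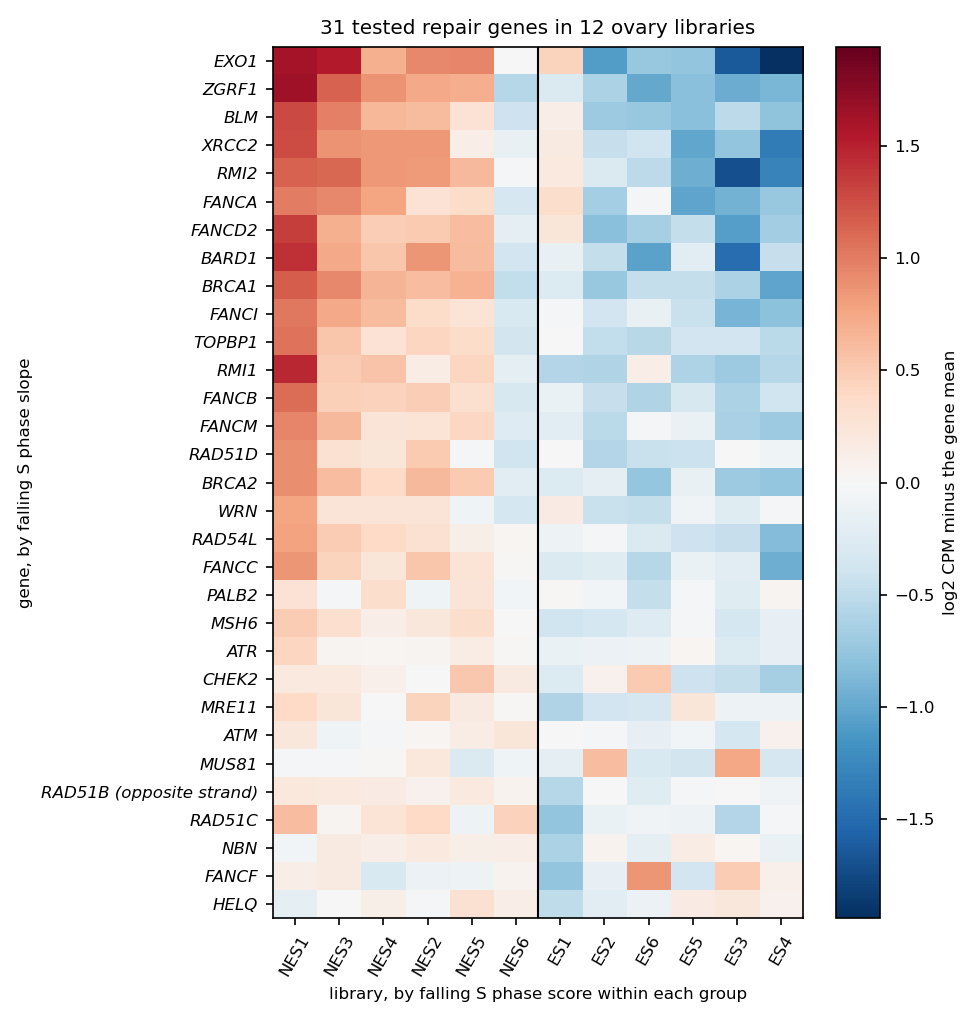
Log2 CPM of each tested member minus its mean over 12 libraries (colour scale), with genes ordered by falling S phase slope and libraries by falling S phase score within NES (left) and ES (right). In NES the upper rows grade broadly in the order of the score, from NES1 to NES6. In ES, ES1 is the highest in most upper rows, and the other ES libraries keep no clear order. The lower rows, from PALB2 to HELQ, show little of this, and ES1 is pale or blue in most of them.

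At an equal S phase score, 0 of 31 members were called between the groups by edgeR, as were 0% of all loci, and the median member difference was -0.14. At an unadjusted p under 0.05 there were 3, all lower in ES, where 9.74% of loci were marked in either direction. These were RAD51C at -0.72, NBN at -0.49 and HELQ at -0.47. They rested on ES1, since without it the values were -0.45, -0.20 and -0.24 and none passed that threshold. MSH6 was at -0.32 ± 0.18 and did not pass it either, and BRCA1, BRCA2, ZGRF1 and RMI2 were at -0.13, -0.23, -0.14 and -0.32. Because the score differs between the groups, this fit separates them with little overlap in score and has wide errors.

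The low slopes also rested on ES1. Without it they were 0.014 for RAD51C, -0.06 for NBN, -0.19 for HELQ, 0.07 for FANCF and 0.11 for the RAD51B opposite-strand locus. No negative slope was called for any member, so these 12 genes are described only as lying below the slope of the average S phase gene. This also held for 2 of the 19 others, RAD54L and FANCC, whose intervals ended below 1. Genes of the score varied as well, although they form it. Of these 42, 17 had a called positive slope and 34 a positive slope at an unadjusted p under 0.05. Among them, CDC45, RFC2 and ORC6 had slopes of 0.25, 0.098 and 0.22.

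Level per length and slope were set side by side. Of the tested members, XRCC2, BLM, ZGRF1 and EXO1 had the lowest mean FPKM, 0.550, 0.655, 0.672 and 0.792, and these 4 also had the steepest slopes. At the other end ATM, with 4.71 FPKM, and ATR, with 3.67 FPKM, had slopes near 0, but TOPBP1, with 4.28 FPKM, and FANCA, with 3.48 FPKM, had not. FANCF, next above EXO1 at 0.874 FPKM, had a slope below 0. This is an order across genes that share the same libraries, with no test.

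The remaining recombination and crosslink genes gave a mixed picture. Of 32 tested, 4 fell and 0 rose by edgeR, against 0.793% and 0.152% of all loci, with a median difference of -0.12. Among those that fell, FIGNL1, which takes recombination filaments apart, fell by 1.37 (adjusted p = 0.0387), PARPBP, which restrains recombination, by 1.42 (adjusted p = 0.0490), and UBE2T, the ubiquitin-conjugating enzyme of the Fanconi pathway, by 0.86 (adjusted p = 0.0479). PARPBP had a called slope of 1.30 and UBE2T an uncalled one of 0.49. POLQ, the polymerase of microhomology joining, had a called slope of 1.51 (adjusted p = 0.0119), with a group difference of -1.34 (adjusted p = 0.0747).

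Other repair routes were counted in the same way. Among all loci 0.793% fell and 0.152% rose by edgeR. At an unadjusted p under 0.05, 6.79% were lower and 9.5% higher, and DESeq2 called 3% lower and 2.33% higher. Of 14 damage checkpoint genes 1 fell, CLSPN, the ATR mediator, by 1.33 (adjusted p = 0.0388, edgeR), with a called slope of 1.07. End joining, which needs no sister copy, had 0 of 9 genes called by edgeR in either direction, 0 at an unadjusted p under 0.05 and a median of 0.0014. DESeq2 called 0 of the 9 as well. Excision repair had 0 of 18 called by edgeR, 4 lower and 0 higher at an unadjusted p under 0.05, and 2 called lower by DESeq2. MUTYH and PARP1, with differences of -0.56 (adjusted p = 0.0635) and -0.46 (adjusted p = 0.0763), had its smallest p-values with DDB2, at -0.29. The PARP1 locus is not annotated as coding. For scale, 18 of 31 mitosis genes and 9 of 42 S phase genes fell.

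Joined loci were read with their neighbours and are not values of the member alone. The locus holding RAD54B, a relative of RAD54L, fell by 1.58 ± 0.26 (adjusted p = 0.0358, edgeR) with a slope of 0.98. The one holding DYRK4 and RAD51AP1 was under the filter, and without the filter had a difference of -1.67 ± 0.31 (adjusted p = 0.0522). The locus of INTS2 and BRIP1 differed by 0.26 (adjusted p = 0.694), and that of FANCL by -0.07 (adjusted p = 0.916).

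Some cell type markers also differed between the groups. Among all loci 0.793% fell and 0.152% rose by edgeR. At an unadjusted p under 0.05, 6.79% were lower and 9.5% higher, and DESeq2 called 3% lower and 2.33% higher. Of 7 oocyte, 8 endothelial and 11 smooth muscle and stroma markers, 0 were called by edgeR or DESeq2. At an unadjusted p under 0.05, 1 oocyte marker was lower, and 1 endothelial and 1 smooth muscle or stroma marker were higher. Of 13 granulosa markers 1 fell, IHH, and 0 rose by edgeR, with a median difference of 0.06. At an unadjusted p under 0.05, 4 were lower and 0 higher, and DESeq2 called 3 lower and 0 higher. INHBB, an inhibin and activin subunit, had the only called S phase slope of the list, 2.18 (adjusted p = 0.0145, edgeR), and a group difference of -1.82 (adjusted p = 0.118). Of the 13 group differences 6 were negative, and that of INHA was 1.51 (adjusted p = 0.412, edgeR). The granulosa markers summed to 504 to 6949 CPM in ES and 1602 to 4797 CPM in NES, and none was at 0 in a library. Of 8 theca markers 3 fell by edgeR, the hedgehog pathway genes PTCH1, HHIP and GLI1, by 1.86, 2.37 and 1.94 in log2 units, with all ES libraries below all NES libraries. By edgeR 0 theca markers rose, and 4 of the 8 differences were negative. At an unadjusted p under 0.05, 2 were higher, STAR by 2.88 and CYP11A1 by 2.79 (adjusted p = 0.0844 and 0.0894, edgeR). DESeq2 called 2 theca markers higher. The theca markers summed to 319 to 3177 CPM in ES and 823 to 1386 CPM in NES, and none of the 3 hedgehog genes had a called slope. The 5 lymphocyte markers summed to 5.33 to 23.4 CPM in ES and 4.76 to 9.17 CPM in NES. By edgeR 0 of them were called, 4 were higher at an unadjusted p under 0.05, and DESeq2 called 1 higher. The 10 macrophage markers summed to 93.9 to 1127 CPM in ES and 70.7 to 195 CPM in NES, the 6 epithelial markers to 184 to 684 and 233 to 350 CPM, and the 7 luteal markers to 585 to 3955 and 599 to 863 CPM. No macrophage, epithelial or luteal marker was called by edgeR, with 4 of each list higher at an unadjusted p under 0.05. The luteal and theca lists share the loci of STAR, CYP11A1 and LHCGR, so their counts and sums are not independent. STAR and CYP11A1, the higher theca markers, are also among the 4 higher luteal markers. DESeq2 called 3 luteal, 2 epithelial and 0 macrophage markers higher. The median log2 difference of the 6 epithelial markers was 1.97, and 0 of the 6 were negative. In ES the SD was above the mean for FOXJ1 (20.3 ± 49.5 CPM), CLDN4 (5.12 ± 9.89 CPM) and KRT8 (15.5 ± 22.3 CPM). It was not for CDH1, UPK3B and WT1. FOXJ1 and CLDN4 were at 0 in at least 1 library. The macrophage marker LYZ was also spread in ES, at 71.5 ± 169 CPM. The sums of the epithelial markers mostly reflect WT1, with a mean CPM of 363 (ES) and 295 (NES) and a log2 difference of 0.30. The part of cell type makeup in the repair gene differences was not tested.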

How the data were processed

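The authors deposited a single table, which per the file headers gives raw counts and FPKM (scaled by the authors for length and library size) for 29150 loci in 12 libraries. Build Sscrofa11.1 and the tools HISAT2, TopHat, cutadapt and FastQC appear in the submitters' processing notes. The sources used here do not give the counting program or annotation. Groups and numbers came from the sample titles. Unnamed loci took 4.47 to 6.60% of each library.

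Counts of 20421 loci (mean FPKM 0.5 or more) were fitted with edgeR 4.0.16 (R 4.3.3), using TMM factors, the quasi-likelihood test and Benjamini-Hochberg adjustment over all of them. Unnamed assembled loci stayed in. The S phase score used a prior count of 2. Intervals are unadjusted. Alternatives were DESeq2 1.42.0, limma 3.58.1 on log2(FPKM + 0.5) and log2(FPKM + 0.1), other scaling, filters and scores, the replicate number as a block and each library left out. Fits without 2 libraries at once, a score from coding loci, the test of slopes between groups and the coding RAD51B locus were chosen after seeing the data. The members and lists were chosen with earlier results of these data known. Values in every library are given for the 8 members with the smallest p between groups, the 6 highest and 6 lowest slopes, the extremes of FPKM, and 3 further members with called slopes, FANCD2, FANCI and TOPBP1, chosen after their values were seen. Of other lists, called genes and up to 3 with the smallest p could be named. POLQ, TOP3A, INHBB, INHA, WT1, LHCGR, RBBP8, CDC45, RFC2, ORC6, FOXJ1 and KRT8 were added after their values were seen. The fits were tested on simulated data. Some genes of the other repair lists are not reported here.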

Additional observations from a re-analysis of the deposited data

Results flagged for a closer look

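The levels of 32 members and 2 scores were screened in each group of 6 libraries. In 10 of these 68 sets, 1 library lay apart by Dixon's criterion (gap over range above 0.625), which chance meets in about 1 in 20 groups. ES1 was apart in the S phase score, at 0.045 where the other ES libraries were at -0.73 to -0.52. It was high in EXO1 at 3.96 CPM (others 0.765 to 1.76), BLM at 6.75 CPM (others 3.49 to 4.34), FANCD2 at 18.6 CPM (others 7.53 to 11.4) and TOPBP1 at 36.0 CPM (others 24.9 to 28.1). NES1 was high in RMI1 at 10.2 CPM (others 3.28 to 5.43) and ATR at 49.3 CPM (others 37.8 to 40.8), and low in NBN at 63.8 CPM (others 71.2 to 75.4). RMI1 was high in ES6, at 4.07 CPM (others 2.27 to 2.53), and CHEK2 in NES5, at 32.8 CPM (others 23.0 to 26.1).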

How the results depend on the processing

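The 5 members called lower became 0 with no filter, 19 by DESeq2, 11 and 12 by limma with pseudocounts of 0.5 and 0.1, 0 without ES3 and ES6, 8 without NES1 and NES6, and 0 to 17 with 1 library left out. With the replicate number as a block, members called lower were 0, called slopes 0 and slope intervals above 0 were 12. The block was kept as an alternative because the labels do not say whether equal numbers mark sisters. Deviations of same-numbered libraries correlated at -0.03 to 0.24, and an ES library matched its own number best in 3 of 6 cases. These values cannot decide whether the numbers are pairs. The 6 called slopes became 15 by DESeq2, 3 by limma, 0 in ES alone, 1 without NES1 and NES6, and 2 to 9 with 1 library left out. The 19 slope intervals above 0 became 6 in ES alone, 10 without NES1 and NES6 and 13 to 20 with 1 left out. Members called higher, with negative slopes or at equal score were 0 in every setting run. The score difference was -1.16 to -0.88 with 1 library left out. The cause of these shifts was not tested.

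Signs turned in 7 of 675 alternative group differences and 32 of 713 slopes, none with a call on either side. Group differences turned for FANCF (limma -0.0060 and -0.033, without ES3 and ES6 -0.25, 1 left out -0.068 to 0.26) and MUS81 (limma -0.0097 and -0.022, 1 left out -0.038 to 0.21). Slopes turned under the block for PALB2 (-0.16) and FANCF (0.53). In NES alone they turned for the RAD51B locus (0.097), RAD51C (0.015), MRE11 (0.23), FANCF (0.021), CHEK2 (-0.0078) and MUS81 (0.044), and in ES alone for RMI1 (-0.11), ATM (0.076) and MSH6 (-0.27). Without NES1 and NES6 they turned for ATM (0.029), ATR (-0.0018) and MSH6 (-0.24), without ES3 and ES6 for MUS81 (0.025), by limma for CHEK2 (-0.0092) and with the mitosis score for ATM (0.016). With 1 library left out, slopes ranged over 0 for the RAD51B locus (-0.40 to 0.11), RAD51C (-0.49 to 0.014), MRE11 (-0.38 to 0.21), FANCF (-0.62 to 0.066), ATM (-0.13 to 0.11), CHEK2 (-0.061 to 0.11), MSH6 (-0.035 to 0.32) and MUS81 (-0.18 to 0.12).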
